A study of Mus musculus with 4 samples.

Results

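The keratins of simple and of stressed epithelium were followed in RIF-1, a fibrosarcoma cell line of the mouse, after RNA interference. The targets were Bre1a, encoded by Rnf20, and Bre1b, encoded by Rnf40, which form the ubiquitin ligase of histone H2B. Of the 6 genes, Krt7, Krt8, Krt18 and Krt19 are keratins of simple epithelium and Krt16 and Krt17 are keratins of stressed epidermis. Their probes were taken by gene symbol, and the list of genes was chosen by log2 ratios that had already been seen on the same 4 arrays, so the values of these genes are a description and not a test. Among 14654 named genes with a probe, 8676 had a value on all 4 arrays, and 4 of the 6 keratins were among them, namely Krt7, Krt8, Krt18 and Krt16. Krt17 had a value on 1 array, and no probe carried the symbol Krt19.

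The 4 arrays are two-colour hybridisations, 2 for each knockdown, with the knockdown RNA always in Cy5 and the control RNA always in Cy3. For each knockdown, 1 array used cells with no knockdown as the control and 1 used mock-treated cells (RNA interference against GFP). All RNA came from RIF-1 cells, and the labels give neither the RNA interference reagent nor the time after it, nor whether the RNAs came from separate cultures. The spread between arrays may therefore be technical, and their number limits the precision. A value is the log2 of knockdown RNA over control RNA. Rnf20 stood at -1.60 and -1.35 on the Bre1a arrays and Rnf40 at -1.49 and -1.23 on the Bre1b arrays, the array against mock second, so each target was lower where the label says so.

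Keratins are the intermediate filament proteins of epithelial cells. They polymerise only as pairs of a type I (acidic) and a type II (basic) chain, and a chain without its partner is unstable. Krt8 (type II) and Krt18 (type I) are the first pair made in the embryo and the main filament of liver, gut and gland. Krt7 (type II) and Krt19 (type I) join them in ducts, bladder and mesothelium. Krt16 and Krt17 (type I) pair with Krt6 chains and are induced in wounded or hyperproliferative epidermis. Many transformed mesenchymal cells carry traces of Krt8 and Krt18 beside vimentin.

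In the mouse genome (GRCm38.p6) Krt7, Krt8 and Krt18 lie in the type II keratin cluster on chromosome 15, and Krt16, Krt17 and Krt19 in the type I cluster on chromosome 11. Krt18 is the type I gene that sits at the edge of the type II cluster, beside its partner. Krt8, on the minus strand, and Krt18, on the plus strand, are transcribed away from each other from starts 23.9 kb apart. The stretches of 250 bases before the annotated starts of these 3 genes, from RefSeq, are shown because both neighbours were lower after Bre1a knockdown on average over the controls. For Krt8 that average joined unlike values, -0.47 against no knockdown and -2.035 against mock. The stretches are chr15:101412153-101412402 (plus strand) for Krt7, chr15:102004343-102004592 (minus strand) for Krt8 and chr15:102027966-102028215 (plus strand) for Krt18. Capitals mark the E-box CAGGTG, read on either strand, which the Snail and Zeb repressors of epithelial genes can bind.
Krt7: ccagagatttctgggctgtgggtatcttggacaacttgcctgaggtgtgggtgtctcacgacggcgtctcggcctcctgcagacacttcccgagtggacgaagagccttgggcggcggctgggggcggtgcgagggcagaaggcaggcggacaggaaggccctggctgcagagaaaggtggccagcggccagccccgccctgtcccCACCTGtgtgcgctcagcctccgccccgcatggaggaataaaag
Krt8: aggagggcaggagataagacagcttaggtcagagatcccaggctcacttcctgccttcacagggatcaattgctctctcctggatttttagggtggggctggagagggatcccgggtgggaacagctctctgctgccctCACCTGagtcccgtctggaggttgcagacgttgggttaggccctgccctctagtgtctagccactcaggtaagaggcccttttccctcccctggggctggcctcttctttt
Krt18: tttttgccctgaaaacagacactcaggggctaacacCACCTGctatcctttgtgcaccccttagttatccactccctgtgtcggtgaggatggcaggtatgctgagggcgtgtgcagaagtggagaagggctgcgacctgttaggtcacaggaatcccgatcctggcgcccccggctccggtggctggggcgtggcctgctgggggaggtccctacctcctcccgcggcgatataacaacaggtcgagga

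Each of the 3 stretches held the E-box CAGGTG 1 time, with its first base 44 bases before the start in Krt7, 111 in Krt8 and 214 in Krt18. Of the 32851 windows of that length in the table, 17.2% held it. The GC box GGGCGG, a binding motif of Sp1, occurred 4 times in the Krt7 window and 0 times in the windows of Krt8 and Krt18, while 32.7% of all windows held it. The AP-1 motif TGANTCA occurred in 0 of the 3 windows and in 6.75% of all windows. GC content was 66.0% for Krt7, 58.0% for Krt8 and 60.4% for Krt18, against a median of 52.4%. These are matches of letters and not measured binding sites. Windows of Krt16, Krt17 and Krt19 were not analysed here.

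Krt18 was the keratin whose ratio followed the knockdown. Its single spot stood at -1.19 (no knockdown as control) and -1.22 (mock as control) on the Bre1a arrays. On the Bre1b arrays it stood at -0.13 and -0.10 in the same order. Both Bre1a values were below both Bre1b values. How many of all genes part in this way was not counted, and limma called 24.9% of them between the knockdowns. The mean of Krt18 was -1.21 ± 0.02 (SD, n = 2) for Bre1a, which is 43.3% of control, and -0.11 ± 0.02 (SD, n = 2) for Bre1b, or 92.4% of control. Taken as a difference between the knockdowns against the same control, Krt18 was at -1.06 against no knockdown and at -1.12 against mock, a mean of -1.09 ± 0.04 (SD, n = 2), or 2.13-fold lower after Bre1a knockdown. Over all 8676 genes the 1st percentile of that difference was -1.51 and the 5th -0.72.

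Between the controls Krt18 showed no steady direction. Subtracting the 2 arrays of a knockdown gives mock over no knockdown, and this was 0.04 on the Bre1a arrays and -0.03 on the Bre1b arrays, straddling 0. With the arrays scaled to 1 spread the mean was -0.22. A dye bias of the Krt18 spot would add to each of the 4 ratios, since the dyes were not swapped, but it cancels in the difference between the knockdowns where it is equal on the arrays.

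Krt8, the partner of Krt18, followed the control instead. The spot with values stood at -0.47 on the Bre1a array against no knockdown and at -2.03 on its array against mock. On the Bre1b arrays it stood at 0.20 and -1.62 in the same order. A second Krt8 spot had a value on 0 of the 4 arrays. Both ratios against mock were far below both ratios against no knockdown. The mean of -1.25 ± 1.11 (SD, n = 2) for Bre1a and of -0.71 ± 1.28 (SD, n = 2) for Bre1b thus each joined unlike values, and for Bre1b the pair differed in sign. Mock cells had more Krt8 RNA than cells with no knockdown by 1.56 (log2) on the Bre1a arrays and 1.82 on the Bre1b arrays, a mean of 1.69 ± 0.18 (SD, n = 2) or 3.23-fold. This was the 49th highest such value among 8676 genes, whose 99th percentile was 1.42.

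Between the knockdowns Krt8 was lower after Bre1a by a smaller amount. Bre1a minus Bre1b came to -0.67 where the control was no knockdown and to -0.42 where it was mock, with a mean of -0.54 ± 0.18 (SD, n = 2). Both values had the direction of Krt18, and both were smaller in size than either value of Krt18.

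Krt7, the other type II keratin of simple epithelium, varied least. With no knockdown as control it stood at -0.08 (Bre1a) and -0.13 (Bre1b). With mock as control it stood at -0.43 (Bre1a) and -0.39 (Bre1b). All 4 ratios were below 0, and the ratios against mock were the lower ones for both knockdowns. Mock over no knockdown came to 0.35 on the Bre1a arrays and 0.26 on the Bre1b arrays, a mean of 0.30 ± 0.06 (SD, n = 2). The knockdowns themselves differed by 0.01 ± 0.06 (SD, n = 2), with 0.05 against no knockdown and -0.04 against mock, so that no direction was left. On the scale of all genes, the control difference of Krt7 lay inside the 5th to 95th percentiles, -0.65 to 0.71.

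Krt16 gave the widest range of the keratins. Its spot stood at -1.37 (Bre1a) and -0.22 (Bre1b) with no knockdown as control. With mock as control it stood at 2.29 (Bre1a) and 2.31 (Bre1b). Both ratios against mock were high and alike, and both ratios against no knockdown were below 0. The means, 0.46 ± 2.59 for Bre1a and 1.04 ± 1.79 for Bre1b (SD, n = 2 each), were smaller than their SDs. Mock over no knockdown was -3.66 on the Bre1a arrays and -2.53 on the Bre1b arrays, a mean of -3.09 ± 0.80 (SD, n = 2), or 8.54-fold lower in mock cells. This was the 6th lowest of 8676 values, opposite in sign to Krt8. The estimates from the 2 knockdowns were 1.13 apart for Krt16, against a median of 0.107 over all genes and 0.251 for Krt8, 0.089 for Krt7 and 0.062 for Krt18. Against mock the knockdowns differed by -0.01 in Krt16, and against no knockdown by -1.15.

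**Figure D1:**
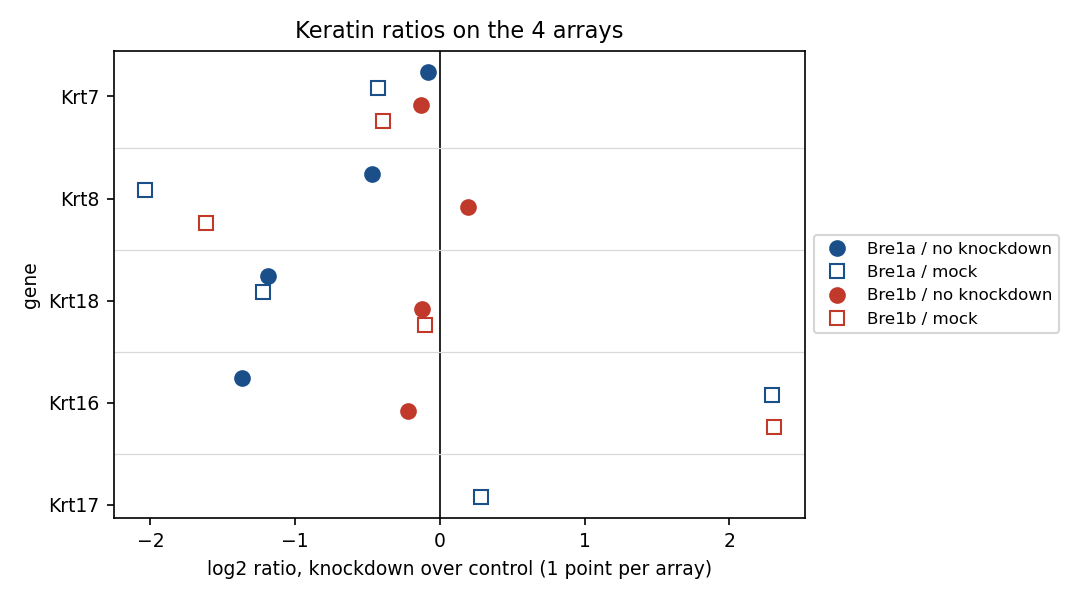
Log2 ratio of knockdown over control (x axis) for each keratin with a value (y axis), 1 point per array, blue for Bre1a and red for Bre1b, filled circles for no knockdown and open squares for mock as the control. The Krt18 points part by knockdown, at about -1.2 and -0.1, while the Krt8 and Krt16 squares lie apart from their circles, in opposite directions.

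Krt17, the other stress keratin, had a value for Bre1a against mock only, 0.28, and the other 3 arrays gave none, so neither a knockdown nor a control difference can be read. Partners and close relatives of the stress keratins were hardly measured either. Krt6a had 3 spots, of which 1 had no value. Of the others, 1 gave -4.11 for Bre1a and -1.03 for Bre1b, and 1 gave -1.54 for Bre1b, each against no knockdown, and against mock they had none. All 3 of these Krt6a values were below 0, as were both Krt16 values against no knockdown. Both spots of Krt75 lacked values, and no probe carried the symbol Krt5, Krt6b or Krt14. Stress keratins are close in sequence (Krt16 and Krt17 to Krt14, and Krt6a to Krt6b), the probe sequences were not analysed here, and whether the spots separate them was not tested.

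Since each knockdown was set against both controls, the level in each kind of cell can be placed relative to cells with no knockdown along 2 routes. For a knockdown these are its own array against no knockdown, or its array against mock plus the mock difference from the arrays of the other knockdown. For mock cells they are the arrays of either knockdown. The routes share all 4 arrays between them, and their gap is the same for the 3 kinds of cells. For Krt18 Bre1a cells were lowest at -1.25 to -1.19, then Bre1b cells at -0.13 to -0.07, and mock cells at -0.03 to 0.04, which did not differ from no knockdown beyond that range. For Krt8 Bre1a cells were lowest at -0.47 to -0.22, Bre1b cells at -0.05 to 0.20 were not apart from no knockdown, and mock cells were highest at 1.56 to 1.82.

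For Krt7 Bre1a cells (-0.17 to -0.08) and Bre1b cells (-0.13 to -0.04) were both a little below no knockdown, with mock cells above at 0.26 to 0.35. For Krt16 mock cells were lowest at -3.66 to -2.53, or 7.91% to 17.3% of the level with no knockdown, and Bre1a cells (-1.37 to -0.23) and Bre1b cells (-1.36 to -0.22) lay below it. The routes use the same 4 ratios, so an overlap of the knockdowns' ranges is no measure of their likeness, and directly against no knockdown the Krt16 difference of Bre1a minus Bre1b was -1.15 (log2). In Krt18 the cells that stood apart were the Bre1a cells, and in Krt7, Krt8 and Krt16 they were the mock cells.

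**Figure D2:**
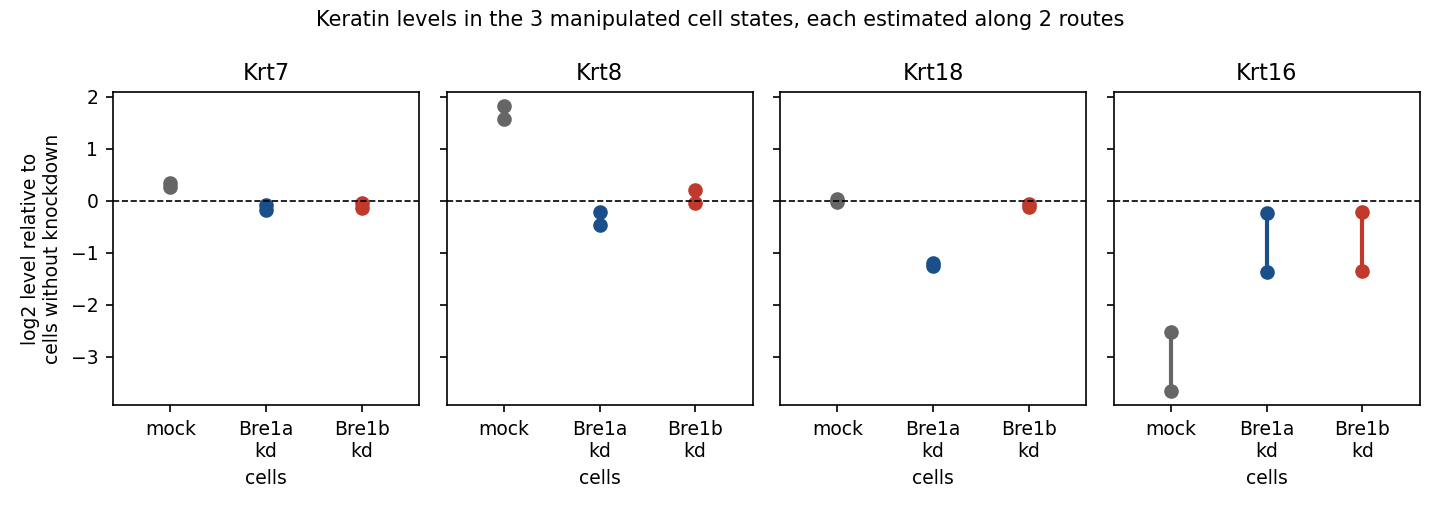
Log2 level relative to cells with no knockdown (y axis, dashed line at 0) in mock, Bre1a knockdown (kd) and Bre1b knockdown cells (x axis) for Krt7, Krt8, Krt18 and Krt16. The points of each pair are the estimates along the 2 routes and the bar joins them. Mock cells are highest for Krt8 and lowest for Krt16, and Bre1a cells are lowest for Krt18.

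A linear model (limma, with a term for the control and Benjamini-Hochberg adjustment at 0.05) was fitted to all 8676 genes. For Bre1a it called 3 of the 4 keratins, Krt7, Krt8 and Krt18, all lower, where it called 40.9% of all genes. For Bre1b it called 2 of 4, Krt7 and Krt8, both lower, where it called 60.4% of all genes. Between the knockdowns it called 1 of 4, Krt18, against 24.9% of all genes, and between the controls 2 of 4, Krt8 higher and Krt16 lower in mock cells, against 13.4%. As these genes were chosen with the same ratios in view, nothing is read from the counts. The control term removes the difference between the arrays of a knockdown from the error, which is how Krt8, with ratios as unlike as -0.47 and -2.03, could be called. Without that term limma called 2 genes for Bre1a, 162 for Bre1b and 0 between the knockdowns, with 2078, 3424 and 1286 genes at an unadjusted p under 0.05. Calls were re-checked for Rnf20, Rnf40, other keratins and the genes with the largest moderated t per list (up to 4 for each knockdown). Of these calls 0 were kept.

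**Figure D3:**
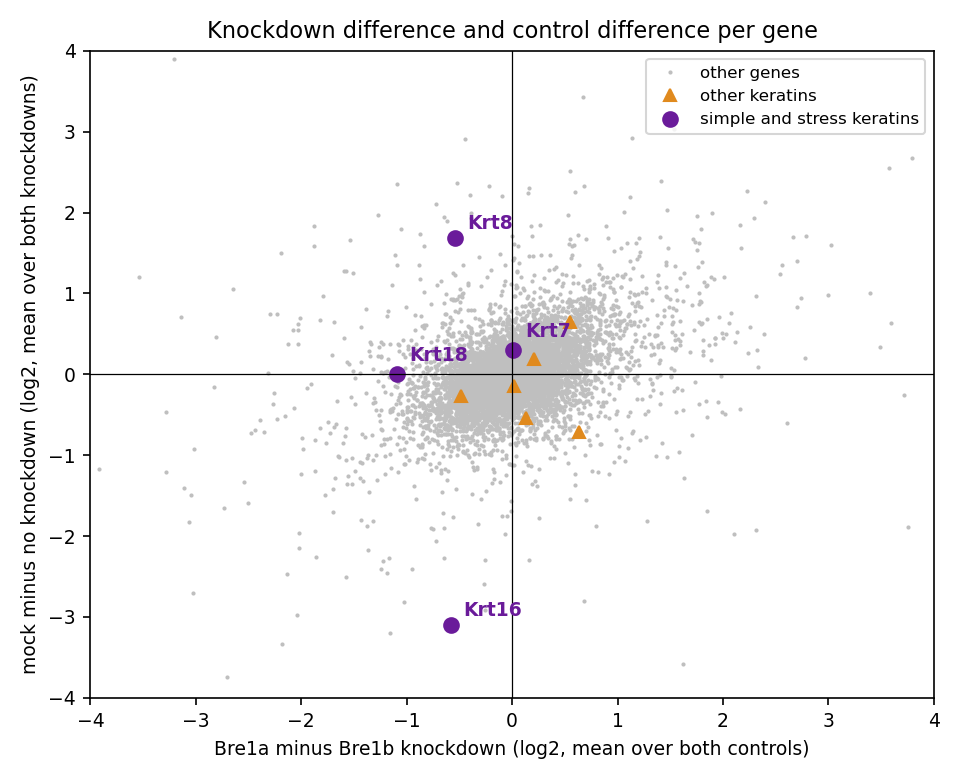
Difference between the knockdowns (x axis, log2, mean over both controls) against the difference between the controls (y axis, log2, mean over both knockdowns) for 8676 genes, of which 7 lie outside the axes. Krt18 lies left on the horizontal line at -1.09, Krt8 at 1.69 and Krt16 at -3.09 on the vertical scale, and Krt7 near the middle of the grey cloud.

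Other keratins were sparsely measured. Of 29 further keratin spots, for 21 genes, 7 had values on all arrays and 17 on none, and over all 22204 named spots 58.4% had all values and 30.5% none. The 6 genes with values on all arrays were Krt1 and Krt10, a pair of suprabasal epidermis, Krt12 of the cornea, Krt13 of oesophageal and oral lining, Krt35 of hair and Krt39. For Bre1a, Krt1 rose (0.33 ± 0.07, limma adjusted p = 0.0289) and Krt12 fell (-0.29 ± 0.42, limma adjusted p = 0.0343). The Krt12 values for Bre1a were 0.00 against no knockdown and -0.585 against mock, so 1 array decided that call. For Bre1b, Krt1 (0.32 ± 0.13, limma adjusted p = 0.0183) and Krt10 (0.33 ± 0.27, limma adjusted p = 0.0326) rose and Krt12 fell (-0.84 ± 0.49, limma adjusted p = 0.00944).

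Krt12 was also called between the knockdowns, higher after Bre1a (0.54 ± 0.07, limma adjusted p = 0.0396), and between the controls, higher in mock cells (0.64 ± 0.07, limma adjusted p = 0.0475). Both of these calls were lost with 1 probe per gene, with incomplete probes added and with arrays scaled to 1 spread. Krt13, Krt35 and Krt39 passed in none of the 4 comparisons, and Krt39 ran from -1.83 to -0.08 over the arrays with 1 value at the number that repeats on many spots of its array. The medians of the 6 genes were -0.10 for Bre1a and -0.26 for Bre1b, against 0.03 and 0.02 over all genes. The mean of Bre1a minus Bre1b was above 0 in 5 of these 6 genes, where 50.1% of all genes were, and in Krt1 and Krt39 the values against the 2 controls differed in sign. Krt10 was at -0.48 ± 0.16, which did not pass (limma adjusted p = 0.055).

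**Figure D4:**
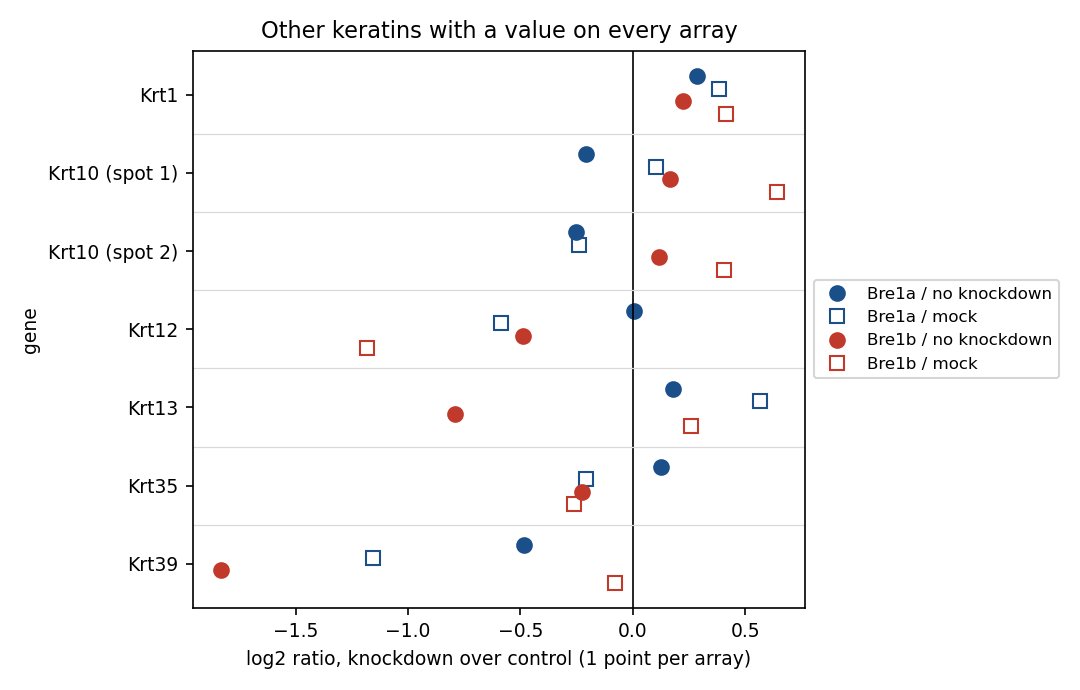
Log2 ratio of knockdown over control (x axis) for the 7 spots of other keratins with a value on every array (y axis), with the same colours and symbols for knockdown and control as in the plot of the simple and stress keratins. Krt1 lies above 0 on all arrays, Krt39 lies below 0 on all arrays, and Krt12 does so on all but Bre1a against no knockdown, where it is at 0.00.

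The genes whose 4 ratios were nearest to each keratin were found by the root mean square difference over the arrays. For Krt18 they were the kinase Stk38l (0.083), the transcription factor Creb5 (0.084) and the mitochondrial co-chaperone Grpel2 (0.107), with 10 genes within 0.2. For Krt8 they were the growth factor Igf1 (0.224), the methyltransferase Nnmt (0.297) and Fahd2a (0.303), with 0 genes within 0.2. For Krt7 they were the collagen receptor kinase Ddr1 (0.020), Pxk (0.036) and Ccdc90b (0.038), in a crowd of 657 genes within 0.2. For Krt16 they were the cystine transporter Slc7a11 (0.527), the olfactory receptor Olfr338 (0.630) and the interferon-induced gene Ifit1 (0.638), and 0 genes were within 0.2. Slc7a11 stood at -1.41 and 1.73 on the Bre1a arrays and -0.93 and 1.77 on the Bre1b arrays, in the order no knockdown and then mock. With 4 arrays, this is a description of likeness only.

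The measured markers of these cells were mainly mesenchymal. Of 15 mesenchymal markers 13 had values on all arrays, against 5 of 19 epithelial, 2 of 5 mesothelial, 1 of 10 leukocyte, 0 of 7 endothelial and 3 of 7 muscle markers. The epithelial cadherin Cdh1 had a value on 1 array, and Esrp1 and Cldn3 on 0. The reason for a missing value is not given in the sources used here, and fewer cells of a type and less RNA per cell cannot be told apart in these bulk RNAs. Among the epithelial markers 1 of 5 rose and 0 fell for Bre1a, and 1 rose and 2 fell for Bre1b, against 1828 genes higher and 1723 lower of 8676 for Bre1a, and 2800 and 2444 for Bre1b. Their medians were -0.04 and -0.35, against 0.03 and 0.02 over all genes. The protease inhibitor Spint1 rose for both knockdowns (1.01 ± 0.46, limma adjusted p = 0.022, and 1.09 ± 0.62, limma adjusted p = 0.00944), and for Bre1b the adhesion protein Epcam (-0.39 ± 0.53, limma adjusted p = 0.0147, at -0.76 and -0.01 with mock the second control) and the clathrin adaptor subunit Ap1m2 (-0.35 ± 0.01, limma adjusted p = 0.0167) fell.

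Some epithelial and mesothelial markers were also called between the controls, where 13.4% of all genes were called. In mock cells 0 of 5 epithelial markers were called higher and 2 lower, Epcam (-0.80 ± 0.07, limma adjusted p = 0.0475) and Spint1 (-0.77 ± 0.16, limma adjusted p = 0.0478), and the list median was -0.77 against -0.01 over all genes. Of 2 mesothelial markers 1 was called higher in mock cells, mesothelin (Msln), a surface protein of mesothelium, at 1.35 ± 0.04 (limma adjusted p = 0.0475). The other, Upk3b, was at -0.39 ± 0.70 and was not called (limma adjusted p = 0.411). The ratios of Msln were 0.11 and -1.26 for Bre1a and 0.16 and -1.17 for Bre1b, in the order no knockdown and then mock. Like Krt8, Msln was low where the control was mock, and it was called lower for both knockdowns (-0.58 ± 0.97, limma adjusted p = 0.022, and -0.51 ± 0.94, limma adjusted p = 0.0105) although its ratios against no knockdown were above 0. All calls between the controls were lost with 1 probe per gene. The part of these cell types in the keratin values was not tested.

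Mesenchymal markers were not called between the controls, with 0 of 13 in either direction and a median of 0.00, where 13.4% of all genes were called. For Bre1a 1 of 13 rose and 7 fell, with a median of -0.20, a share called of 61.5% against 40.9% of all genes. Collagen Col1a1 rose (0.48 ± 0.20, limma adjusted p = 0.0225), and the receptor Pdgfrb (-0.86 ± 0.32, limma adjusted p = 0.0212), the collagen Col3a1 (-0.93 ± 0.27, limma adjusted p = 0.0237) and the repressor Snai2 (-0.78 ± 0.26, limma adjusted p = 0.022) fell. For Bre1b 1 rose and 4 fell, with a median of -0.13, a share called of 38.5% against 60.4% of all genes. Pdgfra (-1.30 ± 0.28, limma adjusted p = 0.0102), Pdgfrb (-0.59 ± 0.25, limma adjusted p = 0.0101) and Snai2 (-0.38 ± 0.36, limma adjusted p = 0.0183) fell, and Snai1 rose (0.44 ± 0.20, limma adjusted p = 0.014). Vimentin (Vim), the type III filament protein of mesenchyme, stood at 0.14 ± 0.10 for Bre1a and 0.02 ± 0.10 for Bre1b and was not called. Leukocyte and muscle markers rested on few genes. Cd14 was called higher for Bre1b (0.28 ± 0.20, limma adjusted p = 0.0187), as was the actin Acta1 (1.32 ± 0.74, limma adjusted p = 0.0479), and the troponin Tnnt1 (-1.24 ± 0.68, limma adjusted p = 0.0117) and desmin (Des, -1.88 ± 0.92, limma adjusted p = 0.0489) were called lower.

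Transcription factors known to act on keratin genes were counted next. Of 28 measured 5 rose and 10 fell for Bre1a, with a median of -0.15, and 11 rose and 5 fell for Bre1b, with a median of 0.01. The shares called were 53.6% and 57.1%, against 40.9% and 60.4% of all genes. Between the knockdowns 0 were called higher and 8 lower after Bre1a, a share of 28.6% where 24.9% of all genes were called (1014 higher and 1147 lower). With 1 probe per gene, incomplete probes added or scaled arrays 0 genes were called in that comparison. Fos and Ets2, of the AP-1 and Ets families that act at an enhancer inside the human KRT18 gene, fell for Bre1a (-1.10 ± 0.64, limma adjusted p = 0.0212, and -0.73 ± 0.10, limma adjusted p = 0.022), as did Fosb (-0.61 ± 0.26, limma adjusted p = 0.0217). Other members of these families, Ets1 (0.49 ± 0.33, limma adjusted p = 0.0231) and Fosl1 (0.33 ± 0.23, limma adjusted p = 0.0399), rose for Bre1a. For Bre1b the AP-1 members Fos (0.89 ± 0.67, limma adjusted p = 0.00944) and Junb (0.56 ± 0.17, limma adjusted p = 0.0105), Ets1 (0.87 ± 0.37, limma adjusted p = 0.00944) and Sp1 (0.63 ± 0.33, limma adjusted p = 0.00944) rose. Between the controls 0 of the 28 were called higher and 4 lower in mock cells, 14.3% against 13.4% of all genes. Fos (-0.93, limma adjusted p = 0.0475) and Ets1 (-0.50, limma adjusted p = 0.0477) were among them, which raises their ratios against mock. For Bre1b Fos stood at 0.41 against no knockdown and 1.36 against mock. Of the E-box repressors Snai2, lower for both knockdowns, and Snai1, higher for Bre1b, are given above. Zeb1 fell slightly for both knockdowns (-0.27 ± 0.03, limma adjusted p = 0.0321, and -0.18 ± 0.00, limma adjusted p = 0.0394). Zeb1, Fosl1, Lmnb2, Upk3b and Vim were named after their values were seen. No link from these factors to the keratins was tested.

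Other intermediate filament genes were called higher more often than lower for Bre1a. Of 12 measured 7 rose and 0 fell for Bre1a, with a median of 0.37, and 4 rose and 4 fell for Bre1b, with a median of 0.05. The shares called were 58.3% and 66.7%, against 40.9% and 60.4% of all genes. Over all genes 1828 were called higher and 1723 lower for Bre1a. For Bre1a the neuronal filament genes Nefl (2.17 ± 1.22, limma adjusted p = 0.0212) and Prph (1.85 ± 0.79, limma adjusted p = 0.0237), the nuclear lamin Lmnb1 (0.68 ± 0.56, limma adjusted p = 0.0212) and Iffo2 (0.64 ± 0.06, limma adjusted p = 0.0213) rose. The other 3 were Lmnb2, Nes, at 0.62 against no knockdown and 0.015 against mock, and Bfsp2, at -0.14 and 2.73. Nefl (-1.97), Bfsp2 (-2.51) and Lmnb1 (-0.77) were also called lower in mock cells (limma adjusted p = 0.0475 each), which raises their ratios against mock. For Bre1b the lens filament gene Bfsp2 rose (2.87 ± 1.52, limma adjusted p = 0.0095). Syncoilin (Sync, -0.90 ± 0.92, limma adjusted p = 0.0111), synemin (Synm, -0.82 ± 0.28, limma adjusted p = 0.0146) and nestin (Nes, -0.29 ± 0.48, limma adjusted p = 0.0201) fell for Bre1b, though Nes was at 0.05 against no knockdown. Sync was at -0.25 against no knockdown and at -1.55 against mock.

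Genes of desmosomes and of proteins that link filaments to other structures (cytolinkers) were mixed. Of 9 measured 3 rose and 1 fell for Bre1a, and 1 rose and 3 fell for Bre1b, with medians of 0.20 and -0.18. The share called was 44.4% for each knockdown, against 40.9% and 60.4% of all genes. Periplakin (Ppl), a linker of keratins to the cell border, rose for Bre1a (1.85 ± 0.40, limma adjusted p = 0.0212), as did Dst (0.36 ± 0.20, limma adjusted p = 0.0272) and the plakophilin Pkp2 (0.54 ± 0.77, limma adjusted p = 0.0223), which was at 1.08 against no knockdown and -0.01 against mock. Plakophilin Pkp3 fell for Bre1a (-0.31 ± 0.06, limma adjusted p = 0.0289) and rose for Bre1b (0.33 ± 0.02, limma adjusted p = 0.016). For Bre1b Pkp1 (-0.84 ± 0.24, limma adjusted p = 0.0274), Pkp4 (-0.30 ± 0.04, limma adjusted p = 0.0167) and plakoglobin (Jup, -0.44 ± 0.17, limma adjusted p = 0.017) fell.

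Genes of proteins that bind, chaperone or clear keratins were called at shares of 31.8% for Bre1a and 54.5% for Bre1b, below the 40.9% and 60.4% of all genes. Of 22 measured 7 rose and 0 fell for Bre1a, and 10 rose and 2 fell for Bre1b, with medians of 0.15 and 0.18. The small heat shock protein Hspb1, which binds keratin filaments, rose for both knockdowns (1.33 ± 0.72, limma adjusted p = 0.0212, and 1.35 ± 0.84, limma adjusted p = 0.00944). The 14-3-3 protein Ywhaz (0.59 ± 0.36, limma adjusted p = 0.022, and 0.51 ± 0.39, limma adjusted p = 0.0105) and Sqstm1, a cargo receptor found in keratin aggregates (0.46 ± 0.25, limma adjusted p = 0.0231, and 0.49 ± 0.22, limma adjusted p = 0.0105), rose likewise. Ywhaz was the mean of 63 spots, at 0.34 (Bre1a) and 0.24 (Bre1b) against no knockdown and at 0.84 and 0.79 against mock. The 14-3-3 genes Ywhab for Bre1a (0.44 ± 0.06, limma adjusted p = 0.0233) and Ywhag for Bre1b (0.58 ± 0.02, limma adjusted p = 0.00975) rose too. Between the controls 0 of these 22 were higher and 3 lower in mock cells, a share of 13.6% against 13.4% of all genes. Hspb1 was called lower in mock cells (-1.11 ± 0.12, limma adjusted p = 0.0475), which raises its ratios against mock. It stood at 0.82 (Bre1a) and 0.76 (Bre1b) against no knockdown, and at 1.84 and 1.95 against mock.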

How the data were processed

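RNA of RIF-1 cells was measured on 4 two-colour arrays. The authors deposited 1 table of log2 ratios, 38784 spots by 4 arrays, made with image software and a normalization not given in the sources used here. The base was read from the values: on each array 1 number repeats on many spots, and spots lay within 0.002 of whole-number ratios (up to 5) to it more often than of shifted positions (523 against 200 for Bre1a against no knockdown; 392 against 384.5 with the natural log). Gene names came from GEO's platform annotation, which gave 22204 of them 1 symbol, all found by gene ID in GRCm38.p6. The 12958 named spots with 4 values were averaged into 8676 genes.

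Genes were fitted with limma 3.58.1 in R 4.3.3, two-sided, with a coefficient per knockdown and a control term (-0.5 and 0.5), leaving 1 residual and 1.57 prior degrees of freedom. The replicate number in the titles marks the control, so this term is also the replicate block and the pairing comes from the labels. Alternatives changed the control term, repeated values, centring, scaling, probe choice and incomplete probes, and left out each array. The script was tested on simulated data. Named genes are all keratins with 4 values, up to 4 genes per list and knockdown with the largest moderated t among calls, and the 3 genes nearest to each member. The members and lists were chosen with earlier results of these data known.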

Additional observations from a re-analysis of the deposited data

Results flagged for a closer look

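Krt16 was set apart because both arrays against mock were above 0 and both against no knockdown below it. Mock minus no knockdown came to -3.09. It is among the calls of limma across all genes, from which nothing is read, since the gene was chosen from the same ratios. Krt10 was above 0 on both Bre1b arrays and below 0 on both Bre1a arrays, with Bre1a minus Bre1b at -0.483, which limma did not call (adjusted p = 0.055, both controls in the same direction). Its 2 spots had opposite signs, 0.10 and -0.24, for Bre1a against mock. Krt12 differed between the knockdowns by 0.545 (limma adjusted p = 0.0396, same direction against both controls) and between the controls by 0.641 (limma adjusted p = 0.0475, same direction on the arrays of both knockdowns).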

How the results depend on the processing

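Numbers of genes called by limma rested on the fit. They were 3551 for Bre1a and 5244 for Bre1b. The difference between knockdowns gave 2161 and that between controls 1161. Without the control term, that is without the replicate block, they were 2, 162 and 0 in that order (1286 genes at an unadjusted p under 0.05 in the last), and a control difference cannot be fitted. With arrays scaled to 1 spread they were 1692, 2345, 0 and 0, with 2435 and 1794 genes at an unadjusted p under 0.05 in the last comparisons. Higher and lower calls were 1828 and 1723 for Bre1a, 1517 and 1813 with centred arrays, and 723 and 969 with scaled arrays. With 1 probe per gene, or with incomplete probes added, 0 genes were called between the knockdowns and 0 between the controls (lowest adjusted p from 0.051 to 0.0648, and 3541 to 3995 genes at an unadjusted p under 0.05). Leaving out each array, without the control term, gave 7 to 131 genes for Bre1a, 0 to 1142 for Bre1b and 0 to 70 between the knockdowns. Where 0 were called, limma gave 552 to 2391 genes at an unadjusted p under 0.05. The lone array of a knockdown is then assumed to vary like the others. The cause was not tested.

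Of 92 values of Krt7, Krt8, Krt18 and Krt16 under the alternatives that kept all arrays, 8 moved by more than 1 SD, by at most 0.32. Of these 2 came from centring and 6 from scaling the arrays. The other alternatives could not change the values, since each keratin rested on 1 spot without a repeated value and each knockdown had both controls. Signs changed in 3 values, none of them called: Krt7 between the knockdowns (-0.06 with scaled arrays) and Krt18 between the controls (-0.005 with centred and -0.22 with scaled arrays). Leaving out 1 array at a time, 12 of 48 moved by more than 1 SD, by at most 1.83. All 12 were differences between the knockdowns. The mean of a single knockdown could not move by that measure, since leaving out 1 of its 2 arrays shifts it by less than its SD. Of the 48 values 9 changed sign. Among these, Krt8 for Bre1b ranged from -1.619 to 0.197, and without the array against mock Krt16 was at -1.37 for Bre1a and -0.22 for Bre1b. The other 6 were differences between the knockdowns of Krt7, Krt8 and Krt16. In these fits 1 knockdown had 1 control and the other the average of both, so the control difference entered them. Against the same control (no knockdown, then mock) Krt8 differed by -0.67 and -0.42 and Krt16 by -1.15 and -0.01, without a change of sign. Krt7 differed by 0.05 and -0.04. Changes of sign on leaving out 1 array also occurred for Krt12 (-0.585 to 0.004), Msln (-1.264 to 0.112) and Pkp2 (-0.0105 to 1.084) for Bre1a, and for Msln (-1.168 to 0.157) and Nes (-0.627 to 0.0495) for Bre1b. Rnf40 for Bre1a was at -0.14 with incomplete probes added, since a further spot, with values on 2 arrays, entered its mean. Spot brightness was not analysed here, so no limit from signal over background can be given.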
